A study of Mus musculus with 2 samples.

Results

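The collagen genes of the mouse were followed across pancreatic cell classes and across 2 single-cell RNA libraries. A gene belonged to the set when its symbol was Col, digits, the letter a and digits, which took 44 of the 31053 genes in the feature table. By protein type they were divided into 11 fibrillar collagens, 8 basement-membrane collagens and 25 other collagens. The rule reads symbols and no measured value, but the members were chosen with earlier results of these data known. Both libraries came from pancreas of mice on a C57Bl/6J background that carried R26[CA]30EYFP, a reporter at the Rosa26 locus with a CA repeat of 30 units, in which EYFP is read only after the repeat has changed length. The sample titles place the cells after pancreatitis, while the treatment field reads "None". Pancreatic cells that were EYFP positive made 1 library and cells that were EYFP negative made the other. How many animals were used, their age and sex, and how and when pancreatitis was induced were not found in the sample labels. Each group is therefore 1 library, no test was possible, and every interval covers counting error only.

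Collagens are proteins whose chains wind into a triple helix, and they form the bulk of the extracellular matrix. Fibrillar collagens assemble into the cables of connective tissue, type IV collagen forms the sheet of basement membranes under epithelium and around vessels, and the remaining types coat fibrils, anchor sheets to them or stay in the cell membrane. After pancreatic injury, fibroblasts and stellate cells are the known main source of interstitial collagen, whereas type IV chains are also made by endothelial and epithelial cells.

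The EYFP positive library held 1717 barcodes with 4006807 unique molecular identifiers (UMIs), and 860 cells were kept. The EYFP negative library held 745 barcodes with 5295816 UMIs, and 553 cells were kept. Kept cells had a median of 1007.5 UMIs in the EYFP positive and 8020 in the EYFP negative library. Genes of acinar secretory products made up 4.05% and 0.0977% of kept UMIs, and the part of this difference in the results was not tested. No collagen gene entered the clustering or the marker lists, but the naming rule was written with collagen values in view. Pi16, Rbpjl and Prss2, described below, were naming markers. Fibroblast-like cells numbered 64 and 6, blood endothelial-like cells 58 and 11, ductal or metaplastic epithelial-like cells (ductal-like below) 224 and 2, and acinar-like cells 90 and 1, in the EYFP positive and EYFP negative library. These cell numbers follow the EYFP sort as well as the tissue. The libraries shared 4 barcodes, of which 2 were kept in both. Of these, a ductal-like EYFP negative cell of 70711 UMIs held 31 collagen UMIs, and its EYFP positive counterpart of 1058 UMIs held 0.

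Of the 44 collagens, 36 had at least 1 UMI in kept cells and 24 had at least 10. Collagen UMIs numbered 4582 in the EYFP positive library, 0.167% of its kept UMIs, and came from 229 cells. In the EYFP negative library they numbered 1577, 0.0325% of kept UMIs, from 65 cells. Levels are given as CPM, a gene's UMIs over all UMIs of the cells summed, on the usual scale that makes each total 1000000. UMIs count molecules and are not divided by transcript length, so levels are compared between cells for the same gene and not between genes.

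Collagen transcripts lay mostly in fibroblast-like and blood endothelial-like cells. In the EYFP positive library a few collagens were highest in an epithelial class. Fibroblast-like cells held 66.9% of the collagen UMIs of the EYFP positive library (95% exact binomial interval 65.5 to 68.2%) and 73.1% of those of the EYFP negative library. Blood endothelial-like cells held 23.1% and 20.7%, in the same order of libraries. Ductal-like cells held 7.29% and 2.16%, and acinar-like cells 2.16% of the EYFP positive UMIs. The 80 T-like cells of the EYFP positive library, with a median of 7359 UMIs each, held 2 collagen UMIs. In the EYFP negative library the 387 T-like cells held 48, which was 3.04% of its collagen UMIs. This count was above the 34 of its 2 ductal-like cells, but the level was 14.2 CPM against 408 CPM.

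A collagen was assigned to a class where its CPM there was at least 2-fold above that in the next class. In the EYFP positive library 13 of 21 collagens with at least 10 UMIs were assigned to fibroblast-like cells, against 4.73% of all genes tested. Blood endothelial-like cells took 3 collagens (Col4a1, Col4a2 and Col13a1), where the share over all genes was 4.79%. Ductal-like cells took 2 (Col4a5 and Col9a3), beside 5.43% of all genes, and acinar-like cells 1 (Col7a1), beside 2.96%. The Col4a5 fold over fibroblast-like cells, 3.11 (1.00 to 15.6), rested on 3 UMIs there. The Col9a3 fold over B-like cells, 9.96 (1.64 to 409), rested on 1 B-like UMI. In the EYFP negative library 11 of 17 were assigned to fibroblast-like cells, beside 5.31% of all genes, and 1 (Col13a1) to blood endothelial-like cells, beside 7.01%. In the EYFP positive library no collagen was assigned to macrophage-like, T-like, NK-like or B-like cells, where the shares over all genes were 3.44%, 1.27%, 2.43% and 1.56%. None was assigned to ductal-like, acinar-like, macrophage-like, NK-like, B-like or erythroid-like cells of the EYFP negative library, beside 6.42%, 1.25%, 3.01%, 2.14%, 1.22% and 2.73% of all genes. Of 16 collagens with at least 10 UMIs in each library, 15 had the same highest class in both. The exception, Col18a1, stood close between ductal-like and fibroblast-like cells in both libraries. The share of all genes that keep their highest class was not counted. EYFP positive classes needed at least 10 cells, whereas the EYFP negative ranking included 1 acinar-like cell and 2 ductal-like cells as classes.

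**Figure D1:**
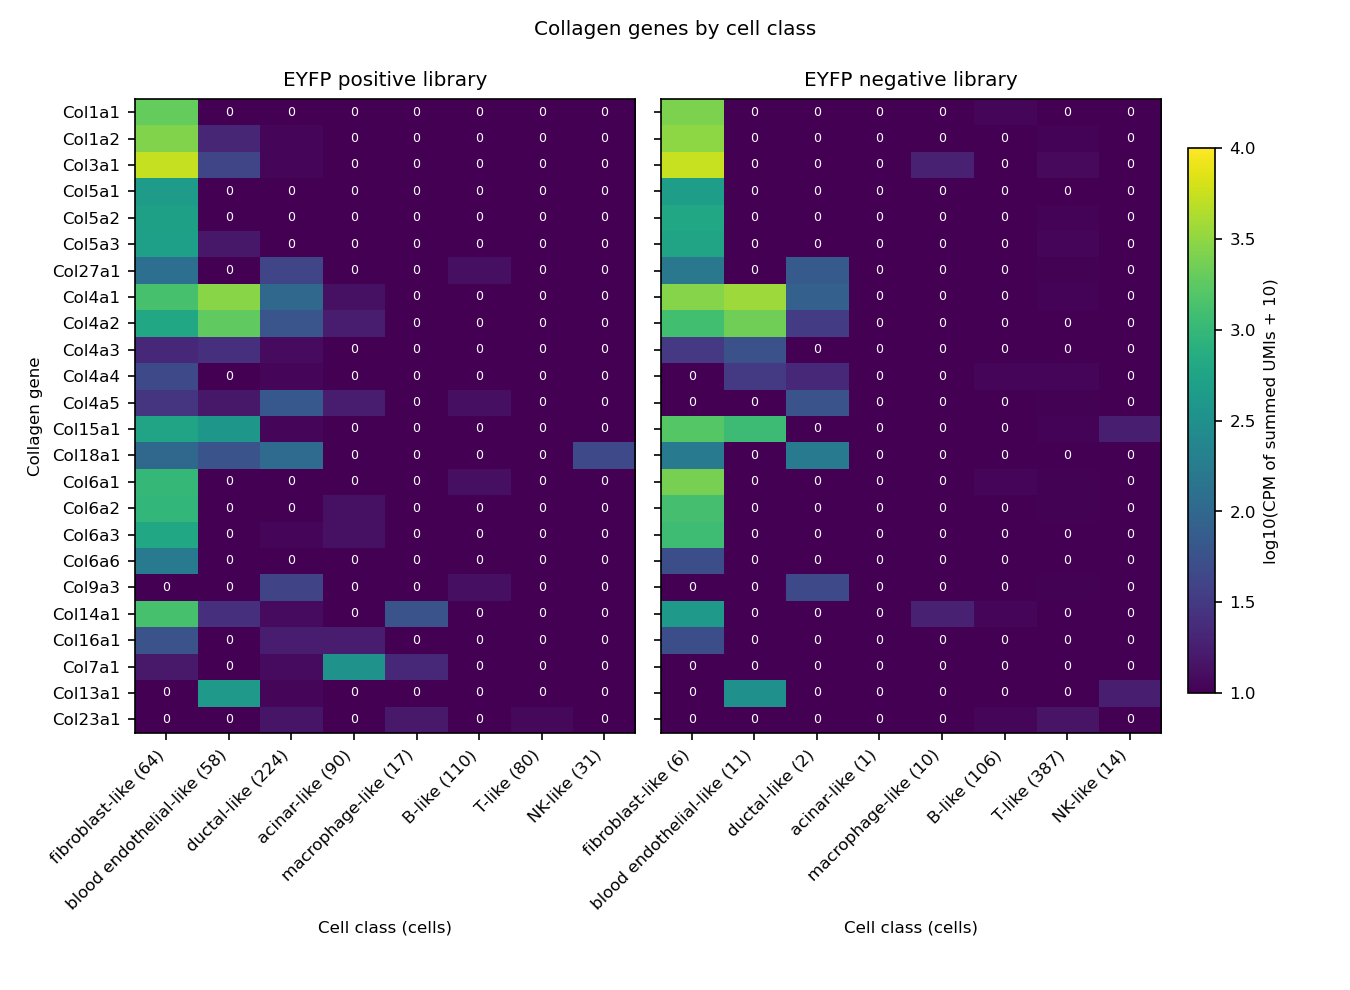
Levels of the 24 collagens with at least 10 UMIs (rows) in 8 cell classes (columns, cells in parentheses) of each library, as log10 of CPM plus 10, where 0 marks no UMI. The fibrillar and type VI genes fill the fibroblast-like column, Col4a1 and Col4a2 also the endothelial-like column, and Col7a1 stands in the acinar-like column of the EYFP positive library.

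Fibrillar collagens were nearly limited to fibroblast-like cells. In the EYFP positive library these cells held 1928 of 1969 fibrillar UMIs (97.9%), at 11620 CPM (95% exact Poisson interval 11107 to 12150). The EYFP negative cells held 620 of 654 (94.8%), at 13090 CPM. No fibrillar UMI was found in the acinar-like, macrophage-like, T-like or NK-like cells of the EYFP positive library. T-like cells of the EYFP negative library held 20 of 654 (3.06%), at 5.90 CPM. The fibroblast naming markers, none of them a collagen, stood at 23836 CPM in the EYFP positive and 30762 CPM in the EYFP negative fibroblast-like cells.

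Col1a1 and Col1a2 encode the chains of type I collagen. Col1a1 had 322 UMIs in the EYFP positive library, all in fibroblast-like cells (1941 CPM, 44 of 64 cells), and 122 of its 124 EYFP negative UMIs lay there (2576 CPM). Col1a2 had 451 of 454 UMIs in EYFP positive fibroblast-like cells (2718 CPM) and 147 of 149 in EYFP negative ones (3104 CPM). The ratio of Col1a1 to Col1a2 UMIs within these cells was 0.714 (0.617 to 0.826) and 0.830 (0.647 to 1.06), so the libraries' intervals overlap. Both chains were seen in 33 of the 64 EYFP positive cells and in 5 of the 6 EYFP negative cells.

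Col3a1, the single chain of type III collagen, had 902 of 909 EYFP positive UMIs in fibroblast-like cells (5436 CPM, 52 of 64 cells) and 267 of 275 EYFP negative UMIs (5637 CPM, 6 of 6 cells). All 6 Col3a1 UMIs of EYFP positive endothelial-like cells lay in 2 cells, both among the 3 that had more pericyte or smooth muscle marker UMIs than endothelial ones. The type V chains Col5a1, Col5a2 and Col5a3, which regulate the width of fibrils, had 71 of 71, 83 of 83 and 80 of 81 EYFP positive UMIs in fibroblast-like cells. In the EYFP negative library these counts were 22 of 23, 29 of 31 and 26 of 29. Col27a1, a fibrillar chain known from cartilage, was the exception. It had 19 UMIs in EYFP positive fibroblast-like cells (115 CPM) and 27 in ductal-like cells (32.3 CPM), which were 27 of the 30 fibrillar UMIs in ductal-like cells.

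The upstream windows of Col3a1 and Col1a2 are shown because these genes shared their cell class while the letters before their starts differed. The windows are the 250 bases before the RefSeq start on GRCm38.p6, chr1:45311288-45311537 (plus strand) for Col3a1 and chr6:4505368-4505617 (plus strand) for Col1a2. Capitals mark the letters TATAAA, the Sp1 box letters GGGCGG and the CCAAT box on either strand, with no overlap between them. The letters were taken anywhere in the window, without regard to distance from the start. TATAAA is therefore not shown to be a TATA box here or below.

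Col3a1: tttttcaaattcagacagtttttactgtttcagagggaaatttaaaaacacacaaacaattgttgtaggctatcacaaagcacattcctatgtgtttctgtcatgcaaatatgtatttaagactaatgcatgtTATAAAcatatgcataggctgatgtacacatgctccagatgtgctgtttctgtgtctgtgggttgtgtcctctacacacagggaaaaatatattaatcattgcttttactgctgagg

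Col1a2: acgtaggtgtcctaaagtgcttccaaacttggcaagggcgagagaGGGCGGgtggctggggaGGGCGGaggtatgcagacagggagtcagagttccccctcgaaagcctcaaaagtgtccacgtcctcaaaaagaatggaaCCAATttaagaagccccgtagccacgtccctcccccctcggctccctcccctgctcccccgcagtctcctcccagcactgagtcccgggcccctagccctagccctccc

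TATAAA occurred 1 time before Col3a1, and 12.4% of 32851 RefSeq windows of the same length hold it on either strand. Before Col1a2, GGGCGG occurred 2 times and CCAAT 1 time, which 32.7% and 33.8% of all windows hold. RefSeq windows were matched to 19 of the 24 collagens with at least 10 UMIs, by symbol, and these matches describe letters and not binding.

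At equal depth the fibrillar collagens were still found in the same cells. When each cell was thinned to 500 UMIs, 58 of 64 EYFP positive fibroblast-like cells kept a fibrillar UMI (90.6%, 80.7 to 96.5%), against 60 of 64 before thinning. Among the 80 EYFP positive T-like cells 0 did, which allows a share of cells with such a UMI of up to 3.75%, taking 3 cells as the limit of a count of 0 (4.51% by the exact binomial interval), and 0 had one before thinning. All 6 EYFP negative fibroblast-like cells and 1 of 387 EYFP negative T-like cells (0.258%) did, against 6 and 11 before thinning. Median depths before thinning were 707 and 7359 UMIs in the EYFP positive classes and 8838 and 8570 in the EYFP negative ones. Most fibroblast-like cells and almost no T-like cell thus held a fibrillar UMI at the same depth.

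Basement-membrane collagens were shared between endothelial-like, fibroblast-like and ductal-like cells. Of 1678 such UMIs in the EYFP positive library, 57.4% lay in blood endothelial-like cells (5233 CPM, 4908 to 5574), 26.5% in fibroblast-like cells (2682 CPM) and 15.6% in ductal-like cells (312 CPM). Macrophage-like and T-like cells of that library had none. In endothelial-like cells basement-membrane genes made up 91.1% of all collagen UMIs in the EYFP positive and 95.7% in the EYFP negative library. In fibroblast-like cells they made up 14.5% (13.3 to 15.8%) and 24.1% (21.7 to 26.7%). Thinned to 500 UMIs, 37 of 58 EYFP positive endothelial-like cells held a basement-membrane UMI, against 44 before thinning, and 8 of 64 fibroblast-like cells did, against 15. Among EYFP negative cells these were 5 of 11 endothelial-like cells, against 10, and 6 of 6 fibroblast-like cells, while 0 of 387 T-like cells did, against 9. Such UMIs were thus detected in a minority of EYFP positive fibroblast-like cells, unlike the fibrillar ones, whose summed level was higher. Of the 10 such cells with at least 5000 UMIs, 9 held Col4a1. The minority therefore describes detection at low depth and not the share of cells that express these genes.

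Col4a1 and Col4a2 encode the common chains of type IV collagen and start head to head. On GENCODE M21, Col4a1 spans chr8:11198423-11312826 on the minus strand and Col4a2 chr8:11312805-11449287 on the plus strand. Their first exons overlap by the 22 bases below, chr8:11312805-11312826 in RefSeq on GRCm38.p6, plus strand, shown because reads there cannot be given to one gene without strand.

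Col4a1 and Col4a2 shared bases: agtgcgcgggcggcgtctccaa

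Col4a1 had 544 UMIs in EYFP positive endothelial-like cells (2956 CPM, 38 of 58 cells) and 160 in EYFP negative ones (3592 CPM, 10 of 11 cells). In fibroblast-like cells it stood at 1344 and 2850 CPM. Col4a2 stood at 1826 and 2222 CPM in endothelial-like cells and at 627 and 1225 CPM in fibroblast-like cells. By these values both genes had the same order of classes in each library. For EYFP negative Col4a1 the fold of endothelial-like over fibroblast-like cells was 1.26 (0.996 to 1.60), an interval that includes 1. The ratio of Col4a1 to Col4a2 UMIs was 1.62 (1.41 to 1.86) and 1.62 (1.25 to 2.1) in the endothelial-like cells of the EYFP positive and EYFP negative library. In EYFP positive fibroblast-like cells the ratio was 2.14 (1.69 to 2.73) and in ductal-like cells 1.73 (1.18 to 2.56). The intervals of the 3 classes overlap.

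Endothelial-like cells formed 2 clusters of different depth. In the deeper cluster the 23 EYFP positive cells had a median depth of 6268 UMIs and Col4a1 at 3659 CPM. Single cells ranged from 122 to 7971 CPM, with a median of 3320. In the shallower cluster the 35 EYFP positive cells had a median depth of 767 UMIs and Col4a1 at 613 CPM (400.2 to 898), and the acinar gene Prss2 stood at 2804 CPM there against 290 CPM in the deeper one. Of the 11 EYFP negative cells 9 fell in the deeper cluster, where Col4a1 stood at 3616 CPM.

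The other type IV chains were rare. Col4a5, an X-linked chain of epithelial basement membranes, had 47 of 54 EYFP positive UMIs in ductal-like cells (56.2 CPM) and 4 of 5 EYFP negative UMIs in 1 ductal-like cell. Col4a3 and Col4a4, which form a heterotrimer with Col4a5 in the kidney glomerulus, had 7 UMIs each in the EYFP positive and 3 and 7 in the EYFP negative library. Of the Col4a4 UMIs, 6 of 7 lay in fibroblast-like cells of the EYFP positive library, whereas in the EYFP negative library 0 of 7 lay there and 4 of 7 in T-like cells. Both genes were seen together in 1 cell of each library.

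Col15a1 and Col18a1 encode the multiplexins, which join basement membranes to the matrix around them and whose ends are cut into restin and endostatin. On GENCODE M21, Col15a1 spans chr4:47208161-47313167 (plus strand) and Col18a1 chr10:77052178-77166548 (minus strand). Col15a1 stood at 554 and 1605 CPM in fibroblast-like cells and at 380 and 1122 CPM in endothelial-like cells of the EYFP positive and EYFP negative library, and 1 of its 164 EYFP positive UMIs lay in ductal-like cells. Col18a1 had 86 of 111 EYFP positive UMIs in ductal-like cells (103 CPM, 82.2 to 127). Its level in EYFP positive fibroblast-like cells was 90.4 CPM (50.6 to 149), which overlaps that of ductal-like cells. Of 9 Col18a1 UMIs in EYFP positive endothelial-like cells, 7 lay in the 3 cells led by pericyte or smooth muscle markers.

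Of the collagens seen in ductal-like cells, Col4a5 and Col9a3 were the ones assigned to them, and most of their counts came from 28 deep cells. In this EYFP positive cluster, whose median depth was 16888 UMIs, Col18a1 was seen in 25 of 28 cells (136 CPM) and Col4a5 in 20 (76.0 CPM). Col4a1 was seen in 19 cells (99.2 CPM), Col9a3 in 12 (36.4 CPM) and Col27a1 in 10 (43.0 CPM). Per cell, Col18a1 ranged from 0 to 341 CPM with a median of 168. Col9a3, a chain of the fibril-associated type IX collagen, had 26 of 27 EYFP positive UMIs in ductal-like cells. It overlaps Tcfl5 by 234 bases on the opposite strand, and Tcfl5 had 2 UMIs in EYFP positive ductal-like cells. The 2 EYFP negative ductal-like cells held 34 collagen UMIs, or 3 without the cell whose barcode both libraries share.

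Type VI collagen, a beaded filament that links fibrils to cells, followed the fibrillar pattern. Col6a1 had 164 of 166, Col6a2 158 of 159 and Col6a3 103 of 105 EYFP positive UMIs in fibroblast-like cells. The EYFP negative counts were 113 of 115, 61 of 62 and 55 of 55. Col6a6, which can take the place of the Col6a3 chain, had 27 of 27 EYFP positive UMIs and both of its EYFP negative UMIs there. The ratio of Col6a1 to Col6a2 was 1.04 (0.829 to 1.30) in EYFP positive and 1.85 (1.35 to 2.57) in EYFP negative fibroblast-like cells. These intervals do not overlap, but few cells carry the counts. Single EYFP positive cells held 49 and 44 of the 158 Col6a2 UMIs, and 1 EYFP negative cell held 46 of the 113 Col6a1 UMIs. The intervals leave out this spread between cells, so their distance is no measure of a difference between the libraries.

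Col14a1 and Col16a1 encode collagens that lie on the surface of fibrils, and Col14a1 spans chr15:55307750-55520803 on the plus strand of GENCODE M21. Col14a1 had 218 of 231 EYFP positive UMIs in fibroblast-like cells (1314 CPM, 36 of 64 cells) and 19 of 21 EYFP negative UMIs (401 CPM, 4 of 6 cells). Of the remaining EYFP positive UMIs, 8 lay in 4 of 17 macrophage-like cells (48.4 CPM). Col16a1 had 8 UMIs in EYFP positive fibroblast-like cells, 6 in ductal-like and 2 in acinar-like cells.

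Col13a1 encodes a collagen that crosses the cell membrane and was seen almost only in endothelial-like cells. It had 73 of 74 EYFP positive UMIs there (397 CPM, 20 of 58 cells) and 14 of 15 EYFP negative UMIs (314 CPM, 6 of 11 cells). It had 0 UMIs in the fibroblast-like cells of either library. In the deeper EYFP positive cluster it was seen in 18 of 23 cells, from 0 to 1308 CPM with a median of 448. None of its UMIs lay in the 3 cells led by pericyte or smooth muscle markers. Its upstream window, chr10:61979109-61979358 on the minus strand, is shown for its class and its TATAAA, in capitals.

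Col13a1: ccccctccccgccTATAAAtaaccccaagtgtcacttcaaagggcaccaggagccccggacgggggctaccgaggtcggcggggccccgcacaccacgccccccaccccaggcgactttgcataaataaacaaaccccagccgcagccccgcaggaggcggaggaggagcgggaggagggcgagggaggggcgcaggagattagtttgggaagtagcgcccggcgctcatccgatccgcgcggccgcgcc

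Among the 21 RefSeq windows of the 19 matched collagens, TATAAA was found in those of Col13a1 and Col3a1 alone, and GGGCGG in 13. Over all windows the shares are 12.4% for TATAAA and 32.7% for GGGCGG. The TATAAA count lies near its share, and neither count was tested.

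Col7a1 was the collagen of acinar-like cells. It encodes the chain of anchoring fibrils, best known for holding the epidermis to the dermis. It had 89 of 97 EYFP positive UMIs in acinar-like cells (332 CPM, 266 to 408, 41 of 90 cells) and 0 UMIs in the EYFP negative library, where 1 acinar-like cell of 5307 UMIs was kept. Within acinar-like cells it was uneven. In the cluster led by Rbpjl, a transcription factor of acinar cells, Col7a1 stood at 572 CPM (455 to 710) and was seen in 36 of 59 cells, with 0 to 7 UMIs per cell. In the cluster led by zymogen genes it stood at 56.1 CPM (22.5 to 115) and was seen in 5 of 31 cells. Prss2, which encodes a trypsinogen, stood at 2134 CPM in the first and 45994 CPM in the second of these clusters, and Rbpjl at 3528 and 232 CPM. Outside the acinar-like class, EYFP positive Prss2 stood at 2848 CPM in NK-like cells. In ductal-like cells it was 3268 CPM in the shallower and 236 CPM in the deeper cluster. Whether 2134 CPM reflects the cells' own expression was not tested. Rbpjl and Prss2 were acinar naming markers, so their presence in acinar-like cells was set by the naming and is no result. In the Rbpjl-led cluster 54 cells had Rbpjl and 34 had both Rbpjl and Col7a1, which describes 59 cells of 1 library that differ in depth. How many cells share Rbpjl with other genes was not counted.

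The Col7a1 gene spans chr9:108953586-108984875 on the plus strand of GENCODE M21. Ucn2, 1134 bases away on the same strand, had 2 UMIs in EYFP positive acinar-like cells, and Uqcrc1, 3962 bases away on the same strand, had 12. The upstream window, chr9:108953336-108953585, is shown because Rbpjl led the cells that held the transcript. Capitals mark GGGCGG and, as ATTGG on the other strand, CCAAT.

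Col7a1: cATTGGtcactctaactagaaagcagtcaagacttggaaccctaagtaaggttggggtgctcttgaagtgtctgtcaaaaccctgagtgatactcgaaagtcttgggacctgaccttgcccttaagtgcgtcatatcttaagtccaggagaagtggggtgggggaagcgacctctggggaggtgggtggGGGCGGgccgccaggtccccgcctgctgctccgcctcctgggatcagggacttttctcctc

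The letters TGGGAA, the core that RBPJ proteins are known to read, were not in this window on either strand, and 21.6% of all windows hold them. This says nothing on sites elsewhere.

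**Figure D2:**
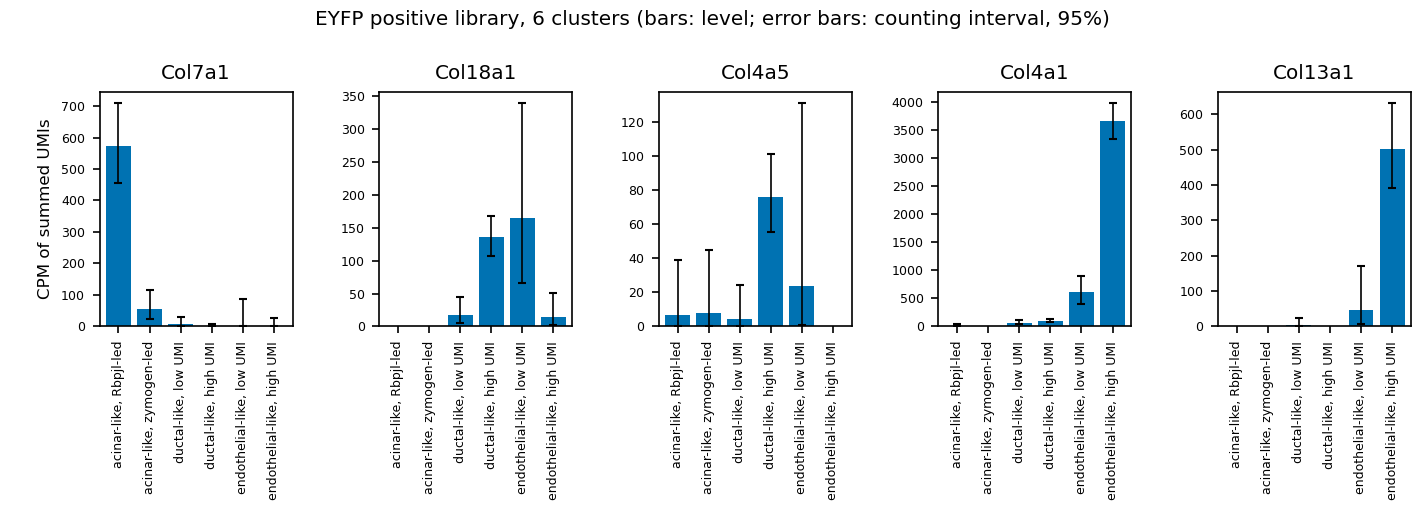
Levels of 5 collagens (panels, each with its own CPM axis) in 6 clusters of the EYFP positive library, with bars for the CPM of summed UMIs and error bars for the 95% exact Poisson interval, and no bar where no UMI was found. Col7a1 stands in the Rbpjl-led acinar-like cluster (572 CPM), and Col4a1 and Col13a1 in the deeper endothelial-like cluster (3659 and 501 CPM).

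Col23a1, another membrane collagen, had 8 EYFP positive and 16 EYFP negative UMIs, and 15 of the latter lay in 14 of 387 T-like cells (4.42 CPM). By the 2-fold rule it was the 1 of 17 collagens assigned to EYFP negative T-like cells, beside 1.13% of all genes. Its fold over B-like cells, 3.17 (0.488 to 134), rested on 1 B-like UMI, and the interval includes 1. Fibroblast-like and endothelial-like cells had 0 UMIs there, which allows up to 77.9 and 82.8 CPM. Of the EYFP positive UMIs, 4 lay in ductal-like and 1 in T-like cells. Phykpl lies 838 bases from Col23a1 on the same strand and had 65 UMIs in the EYFP negative T-like cells. The 12 collagens with 1 to 9 UMIs were Col11a1, Col11a2, Col4a6, Col6a5, Col8a1, Col8a2, Col10a1, Col12a1, Col19a1, Col20a1, Col17a1 and Col25a1. The 8 with none were Col2a1, Col24a1, Col6a4, Col9a1, Col9a2, Col22a1, Col26a1 and Col28a1. The largest counts among the former were 9 UMIs for Col8a1, all in the EYFP positive library, and 1 EYFP positive and 7 EYFP negative UMIs for Col11a2, which lies 1037 bases from Rxrb on the same strand.

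Between whole libraries, collagens were higher in the EYFP positive one. The sum over all collagens was 1669 against 325 CPM, a fold of 5.14 (95% interval 4.85 to 5.45). Of 24 collagens with at least 10 UMIs 22 were at least 2-fold higher, beside 26.8% of all genes tested. None was at least 2-fold lower, beside 8.06% of all genes. The median log2 fold was 2.39 over the collagens and 0.21 over all genes. Col7a1, with 97 UMIs against 0, was at least 57.2-fold higher against a floor of 3 UMIs. Fibroblast-like cells made up 7.44% of EYFP positive and 1.08% of EYFP negative cells, and in whole libraries more cells of a type and more RNA per cell cannot be told apart.

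Within fibroblast-like cells, 64 EYFP positive against 6 EYFP negative, the collagen sum was lower in the EYFP positive library. It was 18466 CPM in the EYFP positive and 24344 CPM in the EYFP negative library, a fold of 0.759 (0.709 to 0.812). Among cells of at least 5000 UMIs without Pi16, 4 in each library, this fold was 1.08, and as a mean over cells it was 0.497. The fibrillar sum differed little, with a fold of 0.888 (0.810 to 0.973), and the basement-membrane sum more, with a fold of 0.457 (0.392 to 0.533). Of 17 collagens tested 2 were at least 2-fold higher, beside 14.9% of all genes, and 3 at least 2-fold lower, beside 18% of all genes. Both shares lie near those of all genes, and the median log2 fold was -0.41 over the collagens and -0.15 over all genes.

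The 5 collagens past 2-fold were Col14a1, Col6a6, Col15a1, Col6a1 and Col4a1, a number that the shares of all genes do not set apart. Col14a1 was 3.28-fold higher in EYFP positive fibroblast-like cells (2.05 to 5.55). Col6a6, with 27 against 2 UMIs, had a fold of 3.85 whose interval of 0.968 to 33.4 includes 1. Col15a1 had a fold of 0.346 (0.252 to 0.475), Col6a1 of 0.414 (0.324 to 0.531) and Col4a1 of 0.472 (0.379 to 0.588). Over 12 alternatives these ran from 0.0825 to 1.08, from 0.186 to 0.848 and from 0.151 to 1.26, with the low ends from means over cells and the high ends from deep cells without Pi16. The Col14a1 fold ran from 0.549, in those deep cells, to 3.59. Folds of the type I, III and V genes lay between 0.753 (Col1a1) and 0.964 (Col3a1). The acinar markers stood at 5852 CPM in the EYFP positive and 0 CPM in the EYFP negative fibroblast-like cells, where 10 of 10 had no UMI against 1 of 10 in the EYFP positive cells. Pericyte or smooth muscle markers stood at 36.2 and 84.5 CPM, with 4 and 6 of 8 at 0. Their part in these folds was not tested.

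**Figure D3:**
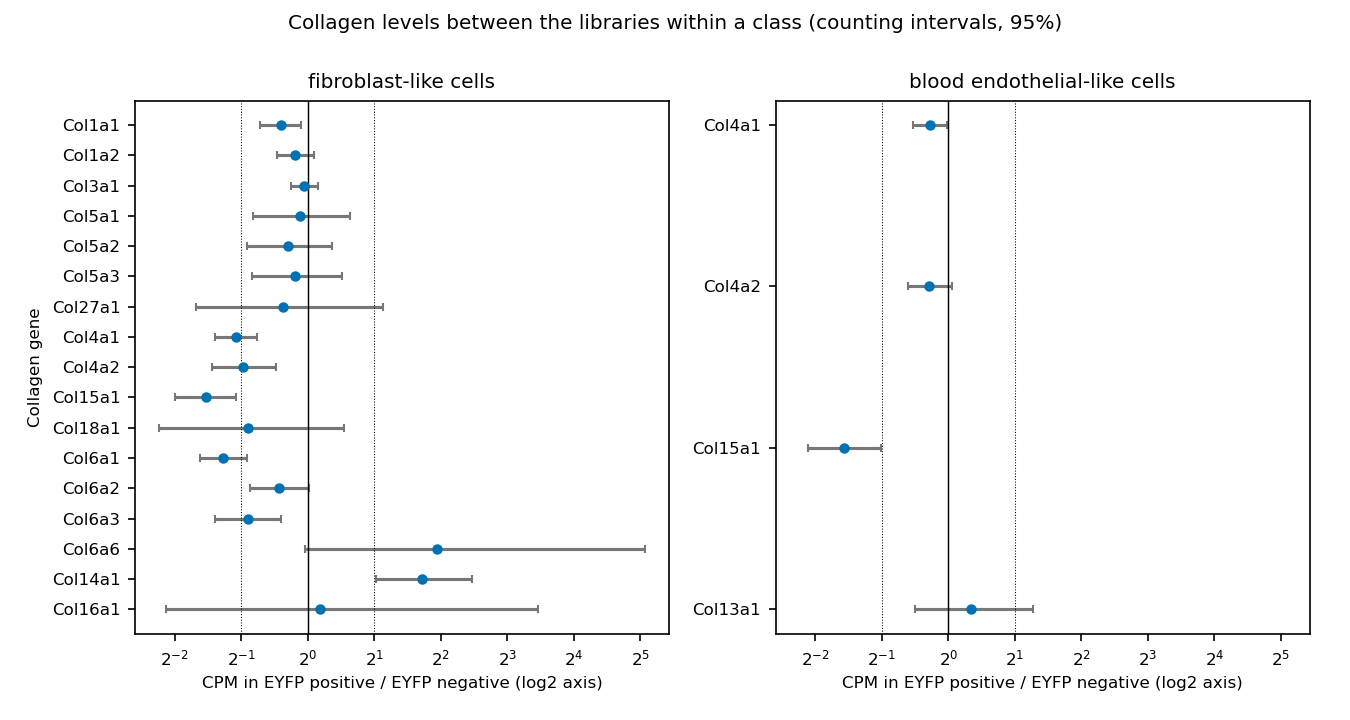
Ratio of CPM in the EYFP positive to the EYFP negative library for each collagen with at least 10 UMIs in the class (points), with 95% counting intervals (bars) and dotted lines at 2-fold, on a log2 axis. In fibroblast-like cells Col14a1 lies at 3.28 and Col15a1 at 0.346, and in endothelial-like cells Col15a1 lies at 0.339 while Col4a1, Col4a2 and Col13a1 lie between 0.822 and 1.26.

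Few deep cells carried most of these counts. In the EYFP positive library 10 of 64 fibroblast-like cells had at least 5000 UMIs, and they held 80.8% of the collagen UMIs of the class. In the EYFP negative library 5 of 6 cells did, and they held 99.7%. The cells and the limit of 5000 UMIs were chosen after the values were seen, and what follows describes single cells and not the libraries.

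The 10 deep EYFP positive cells were of 2 kinds by Pi16, a fibroblast marker used in naming and known from adventitial fibroblasts. In 6 cells Pi16 had 5 to 73 UMIs. Col14a1 had 5 to 46 UMIs in these cells (2223 CPM summed), Col15a1 0 to 2 (41.9 CPM) and Col4a1 0 to 9 (294 CPM). In the 4 cells with no Pi16 UMI, Col14a1 had 0 to 4 UMIs (180 CPM), Col15a1 10 to 43 (1886 CPM) and Col4a1 37 to 65 (4334 CPM). The 2 kinds did not overlap in these 3 genes, nor in Col4a2 (highest 566 CPM with Pi16, lowest 1268 CPM without). How many of all genes separate the same 10 cells was not counted, for these genes or those below.

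Col6a1 and Col6a2 also differed between the kinds without overlap of single cells, while Col6a3 and the type I and III genes overlapped. Col6a2 stood at 378 CPM (249 to 549) in cells with Pi16 and 2740 CPM (2275 to 3271) in cells without, and its cells ranged from 231 to 596 CPM and from 1171 to 4973 CPM. Col6a1 stood at 643 and 2268 CPM and Col6a3 at 405 and 1325 CPM. Col3a1 stood at 6026 and 5367 CPM, and its cells ranged from 3777 to 7782 CPM and from 2606 to 8119 CPM. Col1a1 stood at 1874 and 2111 CPM. All collagens together made up 16191 CPM in cells with Pi16 and 29596 CPM in cells without.

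The 5 deep EYFP negative cells had 0 to 1 Pi16 UMIs. They had 0 to 7 Col14a1 UMIs (409 CPM), 10 to 20 Col15a1 UMIs (1613 CPM) and 9 to 50 Col4a1 UMIs (2903 CPM). Single cells overlapped the EYFP positive cells without Pi16 in all 3 genes. They also overlapped the cells with Pi16 in Col4a1 (lowest 913 CPM against highest 990 CPM) and in Col14a1 (highest 768 CPM against lowest 707 CPM), but not in Col15a1. Over deep cells without Pi16 alone, 4 in each library, Col15a1 had a fold of 1.08 (0.771 to 1.52) and Col14a1 of 0.549 (0.195 to 1.46). Col4a1 had a fold of 1.26 (1.00 to 1.59) there. Leaving out cells by Pi16 also removes the EYFP positive cells highest in Col14a1 and lowest in Col15a1 and Col4a1, so these folds describe the cells kept and are no check of the folds over the class.

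**Figure D4:**
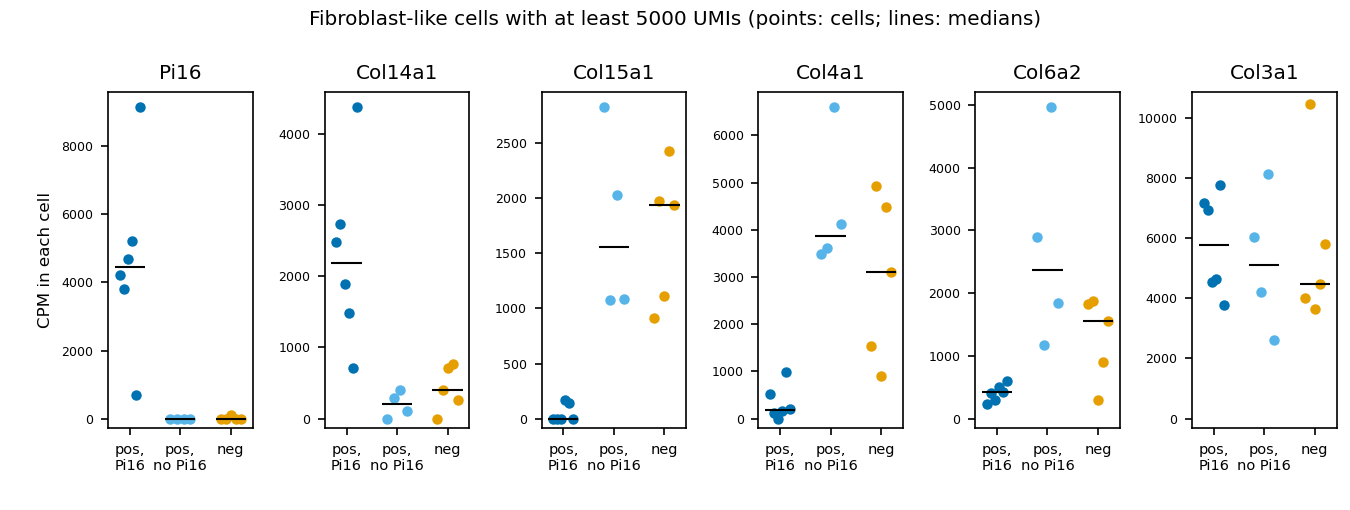
CPM of Pi16 and 5 collagens in each fibroblast-like cell with at least 5000 UMIs (points), for EYFP positive cells with Pi16 (6 cells), EYFP positive cells without (4 cells) and EYFP negative cells (5 cells), with lines at the medians. Between the EYFP positive kinds Col14a1, Col15a1, Col4a1 and Col6a2 do not overlap and Col3a1 does, while EYFP negative cells reach into the range of the cells with Pi16 in Col14a1, Col4a1 and Col6a2.

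Within blood endothelial-like cells the collagen sum was 5744 CPM in the EYFP positive and 7318 CPM in the EYFP negative library, a fold of 0.785 (0.693 to 0.891). Of 4 collagens tested none was at least 2-fold higher, beside 13.4% of all genes, and 1 was at least 2-fold lower, beside 14.2%. That gene was Col15a1, at 380 against 1122 CPM, a fold of 0.339 (0.232 to 0.497). Col4a1 had a fold of 0.823 (0.689 to 0.988), Col4a2 of 0.822 (0.655 to 1.04) and Col13a1 of 1.26 (0.706 to 2.42). Over the 4 collagens the median log2 fold was -0.29, beside -0.22 over all genes.

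Different clusters held most of these cells in the libraries, 35 of 58 in the shallower cluster and 9 of 11 in the deeper one. Within the deeper cluster alone Col4a1 was 3659 against 3616 CPM, a fold of 1.01 (0.844 to 1.22), and the collagen sum had a fold of 0.933 (0.821 to 1.06). Col15a1 stayed lower there, at 459 against 1151 CPM, a fold of 0.399 (0.271 to 0.590). Per cell, Col15a1 ranged from 0 to 1736 CPM with a median of 359 in 23 EYFP positive cells, and from 0 to 3063 CPM with a median of 1002 in 9 EYFP negative cells, so the cells overlap. Pericyte or smooth muscle markers stood at 2353 and 427 CPM in the EYFP positive and EYFP negative endothelial-like cells, with 0 and 6 of 8 at 0. Without the 3 cells they led, which held 36 of 1057 collagen UMIs, Col4a1 stood at 3155 CPM and Col15a1 at 408 CPM.

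The enzymes that make, cut and link collagen were mostly highest in the cells with the fibrillar genes. Among genes with at least 10 EYFP positive UMIs, fibroblast-like cells had the highest CPM, by any margin, for 9 of 12 prolyl and lysyl hydroxylases and their partners, 7 of 9 genes of procollagen folding and export, 4 of 4 of propeptide processing and 3 of 3 of crosslinking, beside 13.7% of all genes. For collagen receptors this was 3 of 8, and for partners in the basement membrane 7 of 14, beside the same share. Serpinh1, the collagen chaperone HSP47, stood at 970 and 1225 CPM in EYFP positive and EYFP negative fibroblast-like cells. P4hb, a subunit of prolyl 4-hydroxylase, stood at 265 and 464 CPM, and Loxl1, a crosslinking oxidase, at 488 and 486 CPM.

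Between the libraries' fibroblast-like cells, none of 9 hydroxylase genes tested was at least 2-fold higher and 2 were lower. Of 8 folding genes 2 were higher and 2 lower. The intervals of all these higher and lower hydroxylase and folding genes include 1. Propeptide processing had 1 of 4 higher and 1 lower. The higher gene was Pcolce2, an enhancer of the proteinase that trims procollagen, with 140 against 3 UMIs and a fold of 13.3 (4.47 to 65.4). The lower was its relative Pcolce, with 38 against 61 UMIs and a fold of 0.178 (0.115 to 0.271). Of 4 crosslinking genes 1 was higher, Loxl2, at 2.06-fold (0.804 to 6.71), and 1 lower, Lox, at 0.263-fold (0.110 to 0.626). Of 5 receptor genes 1 was higher, the collagen receptor kinase Ddr2, at 4.49-fold (2.11 to 11.4), and 2 lower. Of 9 basement-membrane partners 1 was higher and 4 lower, among them Hspg2, which encodes perlecan, at 0.270-fold (0.182 to 0.401). These counts stand beside the 14.9% and 18% of all genes given above.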

How the data were processed

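UMI counts per gene and cell barcode were used as deposited, whole numbers with no normalization. The kit was Chromium Single Cell 5′ v1.1, per the labels' protocols. The submitters' processing notes name Cell Ranger 2.1.0 and GRCh38, while the file header gives software version 3.1.0 and the gene identifiers are of mouse, and the build used for mapping was not settled. Gene positions are those of GENCODE M21, and sequences are RefSeq on GRCm38.p6. No barcode had fewer than 500 UMIs.

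A barcode was kept when it had 200 or more genes and a mitochondrial share of 20% or less. Scrublet marked 2 EYFP positive cells and 5 EYFP negative ones as doublets, which stayed in. The kept cells were clustered jointly in scanpy 1.11.5 (2000 variable genes, 30 components, 15 neighbours, Leiden resolution 1), and all collagens were left out. A cluster was named from listed markers, with at least 3 of them at 2-fold or more and 5 UMIs. This naming rule was written after the clusters and the collagen values had been seen, and 2 versions were tried. Class names are thus rebuilt and not the submitters'.

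UMIs were summed per library and class. Intervals are 95% exact Poisson for CPM, Clopper-Pearson for shares and conditional binomial for ratios and folds (scipy 1.17.1), checked on simulated counts. UMIs were not divided by length, and nothing in the sources says whether counting used strand. Genes with at least 10 UMIs in a comparison were counted in it, and 2-fold was the limit for higher or lower. A fold against 0 was taken against 3 UMIs.

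All collagens with at least 10 kept UMIs were named, and up to 4 genes of each pathway list, those with most UMIs. The members, lists and markers were chosen with earlier results of these data known. Neighbouring genes, Pi16, Rbpjl, Prss2, the promoters, the motifs, the limit of 5000 UMIs, the separate endothelial cluster and the cells led by pericyte markers were chosen after values were seen. Alternatives were another total, stricter and no barcode filters, other clusterings and class rules, doublets removed, means over cells and cells left out.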

Additional observations from a re-analysis of the deposited data

Results flagged for a closer look

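Barcodes that the filter left out also held collagen UMIs. The 857 EYFP positive barcodes left out held 105 collagen UMIs, of which 36 were of Col7a1, in 20 barcodes. The level of Col7a1 there was 28.5 CPM, against 35.3 CPM over kept cells, and 30 of these UMIs lay in barcodes that also had Rbpjl. The barcodes with Col7a1 had a median mitochondrial share of 50.4%. The 192 EYFP negative barcodes left out held 6 collagen UMIs and none of Col7a1.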

How the results depend on the processing

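No paired analysis was possible because each group is 1 library. Of 51 alternative values for the sums, 29 moved by less than their counting interval, 21 moved by more and 1 reversed; of 174 for single genes, these counts were 146, 21 and 7. Without acinar secretory, mitochondrial and ribosomal protein genes in the total, fibrillar collagens stood at 14188 CPM in EYFP positive fibroblast-like cells, basement-membrane collagens at 6037 CPM in endothelial-like cells, and the whole-library fold was 4.49. With a stricter filter of 500 or more genes and 10% or less mitochondrial UMIs these were 12925 CPM, 6431 CPM and 5.74, with folds of 0.845 in fibroblast-like and 0.943 in endothelial-like cells, and 1.00 for endothelial Col4a1. As a mean over cells, they were 7816 CPM and 3233 CPM, and the folds 0.497 and 0.630. Type IV alone stood at 4804 CPM in endothelial-like cells. Without the cell with most collagen UMIs in each library and class, fibrillar collagens stood at 10962 CPM, and the folds were 6.97 over whole libraries, 0.854 in fibroblast-like and 0.923 in endothelial-like cells, and 1.03 for endothelial Col4a1. Over every barcode the whole-library fold was 3.91. The cause of these moves was not tested.

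The following were chosen after seeing the data. Over cells of at least 5000 UMIs the fibroblast-like fold was 0.864, and over those without Pi16 it was 1.08, with 0.549 for Col14a1, 1.08 for Col15a1, 1.26 for Col4a1 and 1.49 for Col4a2. In the deeper endothelial cluster alone the fold was 0.933, and 1.01 for Col4a1. Under 12 alternatives the Col15a1 fold of endothelial-like cells lay between 0.264 and 0.413. Acinar-like Col7a1 ranged from 222 CPM under the first naming rule to 574 CPM under the other total. Thinned to 1000 UMIs, 100% of the 23 remaining EYFP positive fibroblast-like cells held a fibrillar UMI. Most fibroblast-like counts come from few cells, so intervals understate the error.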
